A study of Caenorhabditis elegans with 6 samples.

Results

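The genes described here encode subunits of Cys-loop ligand-gated ion channels of the nematode Caenorhabditis elegans. They were chosen by name alone, as the genes called lgc (ligand-gated ion channel) or acr (acetylcholine receptor) followed by a number. There were 75 such genes, 54 lgc and 21 acr, among the 25212 genes of the deposited table. Channel subunits of the same superfamily with other names, such as unc-29 and unc-49, were kept apart as a comparison list.

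A Cys-loop channel is a ring of subunits around a pore, in which each subunit has an extracellular ligand-binding domain with a disulfide-bonded loop and a set of membrane-spanning helices. Binding of a transmitter opens the pore within milliseconds, and a pore for cations excites the cell while a pore for chloride usually inhibits it. The nematode family is large: besides acetylcholine, GABA and glutamate, members respond to serotonin, dopamine, tyramine, choline or betaine, and for many lgc genes the ligand is not established. The subunits studied so far act mostly in neurons and muscle.

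RNA was sequenced from whole animals of the wild-type strain N2 in 6 poly(A)-selected libraries, 3 labelled ASP and 3 labelled Control, each numbered 1 to 3. ASP stands for aspartame, a dipeptide sweetener, given at 100 µM per the design text, and the Control libraries carry no further description. The age of the animals, the number per library and what a replicate number stands for are not stated in the labels, and contact of the sequenced animals with Pseudomonas aeruginosa, which the design text names, is not stated. Nothing in the labels says that libraries came from separate cultures. The p-values therefore reflect only how far these libraries vary, and that variation may be technical.

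Levels are FPKM, fragments scaled by transcript length and by library depth, as deposited by the authors. Total estimated counts ranged from 53558562 to 63581942 per library. Markers of neurons, body wall muscle, intestine, germ line and sperm were above 0 in all 6 libraries. The libraries numbered 3 stood apart in both groups: the summed level of 28 molting and cuticle genes was 3434 FPKM in ASP 3 and 3197 in Control 3, against 709 to 1468 in the other 4, and 6 vitellogenins, the yolk proteins, summed to 922 and 999 FPKM against 2547 to 3108. Since whole animals were sequenced, fewer cells of a type and less RNA per cell cannot be told apart.

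Most of the channel genes were present at low levels. A mean over the 6 libraries of at least 1 FPKM was reached by 31 of the 75 genes, or 41.3%, while 72.9% of the 18596 mRNA genes of the table reached it. The median of these means was 0.683 FPKM over the channel genes and 6.38 FPKM over the mRNA genes. Only 4 channel genes had a mean of 10 FPKM or more, 64 had at least 0.1 FPKM and 11 lay below that. A value above 0 was found in all 6 libraries for 61 genes, and 14 genes were listed at 0 in at least 1 library. The lowest was lgc-16, which was above 0 in ASP 2 alone and had a mean of 0.00497 FPKM.

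**Figure D1:**
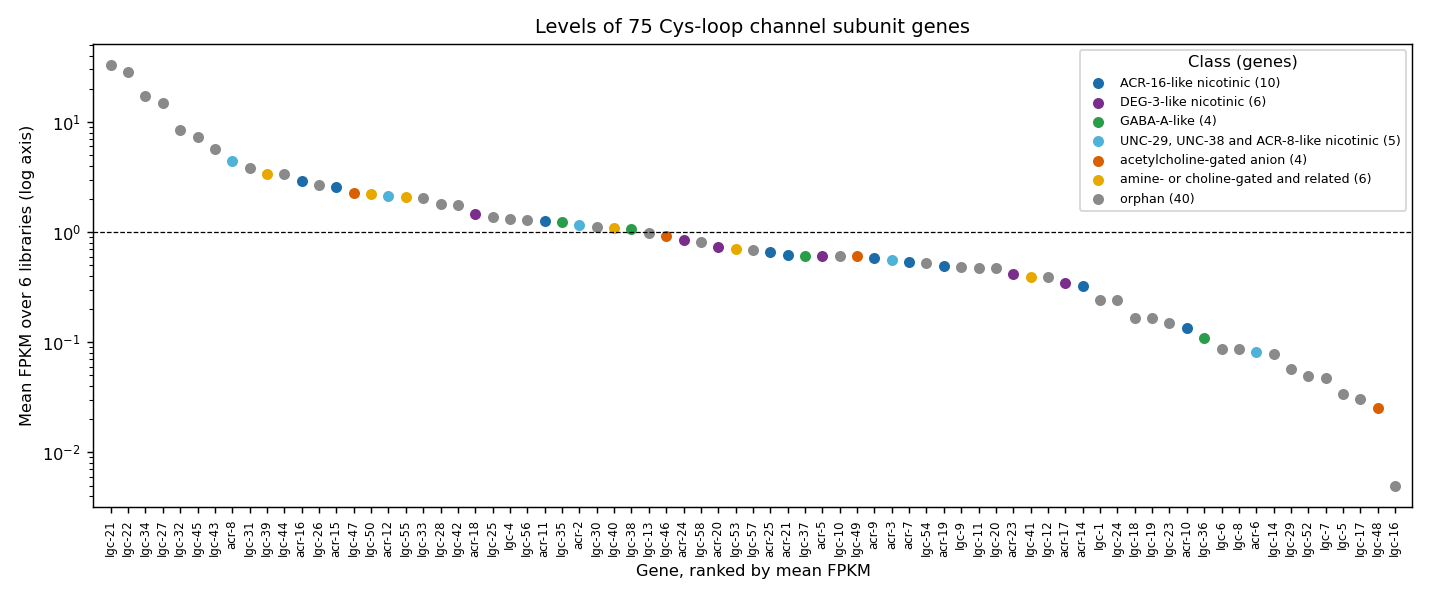
Mean FPKM over the 6 libraries (log axis) of the 75 channel genes in rank order, coloured by class, with the dashed line at 1 FPKM. The first 7 ranks are orphan lgc genes, acr-8 is the highest acr gene with 4.42 FPKM, and 44 genes lie under the line.

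The 40 genes grouped as orphans, lgc genes whose ligand was not assigned here, held most of the signal. Their summed level was 112.5 to 186.7 FPKM per library, against 8.91 to 10.99 FPKM for the 10 ACR-16-like nicotinic genes and 2.48 to 11.2 FPKM for each of the other 5 classes. The spread within the orphans was wide, since 17 reached 1 FPKM and their median was 0.645 FPKM. The summed level of all 75 genes was 151.99, 167.5 and 222.7 FPKM in ASP 1, 2 and 3 and 152.3, 171.2 and 226.2 FPKM in Control 1, 2 and 3. The 4 highest genes contributed between 44.5% and 60.4% of that sum. Without them the sum was 82.8 to 95.4 FPKM in the 6 libraries. The excess of the libraries numbered 3 thus lay mainly in lgc-21, lgc-22 and lgc-27. The other of the 4, lgc-34, averaged 17.5, 16.4 and 17.9 FPKM in numbers 1, 2 and 3.

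**Figure D2:**
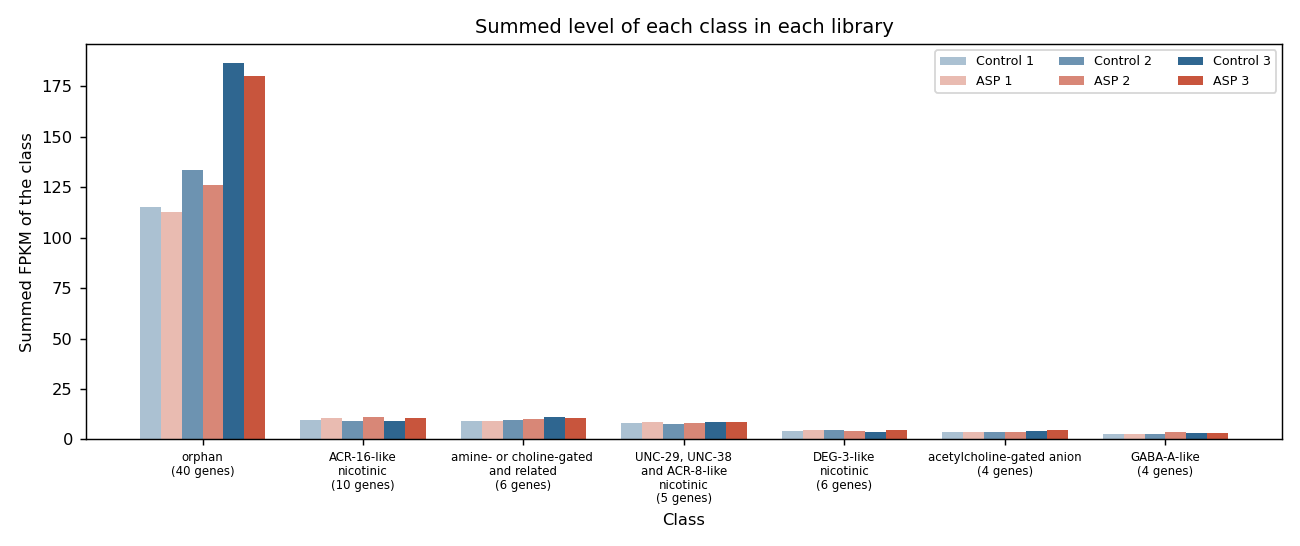
Summed FPKM of each class of channel subunits, with 1 bar per library (blue Control, red ASP, darker for higher replicate numbers). The orphan bars of the libraries numbered 3, at 180 and 187 FPKM, stand above those of numbers 1 and 2, and the other classes stay at or below 11.2 FPKM in every library.

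The highest gene was lgc-21, on chromosome X at 14064313 to 14067984. It had 27.8, 26.8 and 41.9 FPKM in ASP 1, 2 and 3 and 23.4, 24.5 and 52.8 FPKM in Control 1, 2 and 3. For lgc-22, on chromosome IV at 4301306 to 4304448, the values were 16.4, 25.96 and 42.4 FPKM in ASP and 18.8, 28.7 and 37.95 FPKM in Control. Both genes were highest in the 2 libraries numbered 3, and their ranges overlapped, so their order is not larger than the spread between libraries.

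The third gene by level, lgc-34 on chromosome II, kept a nearly constant level of 17.2, 15.7 and 17.5 FPKM in ASP and 17.9, 17.1 and 18.3 FPKM in Control. Its highest library was 1.17 times its lowest, the smallest such ratio among the 61 genes above 0 in every library. The fourth, lgc-27, also on chromosome II, ranged from 7.70 FPKM in ASP 1 to 27.4 FPKM in Control 3, a ratio of 3.56. The next orphans were lgc-32 with a mean of 8.51 FPKM, lgc-45 with 7.37 FPKM and lgc-43 with 5.66 FPKM. Of these, lgc-45, which has the longest coding sequence of the 75 genes (3138 nt), lay between 6.52 and 7.89 FPKM in the 6 libraries.

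Among the acetylcholine receptor subunits related to UNC-29, UNC-38 and ACR-8, 3 of 5 reached 1 FPKM. The highest was acr-8, a relative of the subunits of the levamisole-sensitive muscle receptor, with 4.13, 4.95 and 5.03 FPKM in ASP and 4.06, 3.82 and 4.54 FPKM in Control. For acr-12, a subunit of receptors in motor neurons, the values were 2.87, 2.001 and 1.89 FPKM in ASP and 2.32, 1.92 and 1.85 FPKM in Control. The cholinergic motor neuron subunit genes acr-2 and acr-3 lie 230 bp apart on the same strand of chromosome X and are known to share an operon. Per length they were listed at different levels: acr-2 had a mean of 1.17 FPKM (0.862 to 1.52) and acr-3 one of 0.556 FPKM (0.405 to 0.792), with no overlap of their library values. The remaining gene of the class, acr-6, had a mean of 0.0818 FPKM and was listed at 0 in ASP 1 and Control 1.

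Of the 10 ACR-16-like genes, which are related to vertebrate alpha-7 type receptors, 3 reached 1 FPKM. The nicotine-sensitive receptor of body wall muscle, acr-16, had 2.47, 2.89 and 4.11 FPKM in ASP and 3.18, 2.499 and 2.296 FPKM in Control. Its neighbour acr-15, 5833 bp upstream on the same strand of chromosome V, had a mean of 2.56 FPKM, and acr-11 had 1.25 FPKM. The other 7 genes of the class had means between 0.136 FPKM (acr-10) and 0.664 FPKM (acr-25).

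In the DEG-3-like class, acr-18 alone of 6 genes reached 1 FPKM, with a mean of 1.47 FPKM. The betaine receptor gene acr-23, whose product is the target of the anthelmintic monepantel, had 0.123, 0.283 and 0.605 FPKM in ASP and 0.431, 0.451 and 0.610 FPKM in Control. These values came from 14 to 83 estimated counts, and its highest library was 4.95 times its lowest. The gene acr-5, used as a marker of B-type motor neurons, had a mean of 0.607 FPKM.

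No gene of the GABA-A-like class had a mean above 1.23 FPKM, although the class median of 0.842 FPKM was above the 0.683 FPKM of all 75 genes. The GABA-gated cation channel gene lgc-35 had 0.970, 1.32 and 1.29 FPKM in ASP and 1.35, 1.01 and 1.45 FPKM in Control, and lgc-38 had a mean of 1.08 FPKM. The GABA-A-type subunit gene lgc-37 was listed at a mean of 0.609 FPKM and lgc-36 at 0.110 FPKM. The order of lgc-35 and lgc-38 is within the spread of their libraries.

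Among the channels opened by amines, choline or betaine and their relatives, 4 of 6 genes reached 1 FPKM, led by lgc-39 with 2.95, 3.14 and 3.77 FPKM in ASP and 2.46, 3.72 and 4.36 FPKM in Control. The serotonin-gated cation channel gene lgc-50 had 2.55, 2.61 and 2.22 FPKM in ASP and 2.03, 2.26 and 1.74 FPKM in Control. For lgc-55, which encodes a tyramine-gated chloride channel, the values were 2.04, 2.005 and 1.995 FPKM in ASP and 1.74, 2.02 and 2.83 FPKM in Control. The ASP libraries of lgc-55 thus lay inside the range of its Control libraries. The channel gene lgc-40 had a mean of 1.09 FPKM, the dopamine-gated channel gene lgc-53 had 0.696 FPKM and the betaine-gated channel gene lgc-41 had 0.388 FPKM.

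In the class of acetylcholine-gated anion channels, lgc-47 had a mean of 2.26 FPKM and was the 1 gene of 4 over 1 FPKM. The gene lgc-46 had 0.794, 0.843 and 1.28 FPKM in ASP and 0.593, 0.979 and 0.985 FPKM in Control. The others were lgc-49 with 0.605 FPKM and lgc-48, which was above 0 in ASP 1 and Control 3 alone.

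The position of the genes was uneven. On chromosome X lay 23 of the 75, or 30.7%, against 13.99% of the mRNA genes of the table, and on chromosome I lay 3, or 4%, against 14.96%. Another channel gene lay within 10000 bp of 19 genes. These 19 had a median of 0.166 FPKM, and 3 of them (acr-2, acr-15 and acr-16) reached 1 FPKM. The other 56 had a median of 0.994 FPKM, and 28 of them reached 1 FPKM. A cluster on chromosome X between 12109166 and 12128000 holds lgc-13, lgc-14, lgc-16, lgc-17 and lgc-18, of which lgc-13 had a mean of 0.971 FPKM and the others 0.166 FPKM or less. Similar pairs of low neighbours were lgc-5 with lgc-6 and lgc-7 with lgc-8 on chromosome IV, lgc-23 with lgc-24 on X, and lgc-1 with lgc-29, which lie 163 bp apart on V. Reads of closely related neighbours may be split between them by the counting, which makes single values in such clusters uncertain.

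The gene models had coding lengths of 1098 to 3138 nt (median 1458 nt) and 5 to 16 exons in the longest transcript. In the Gene Ontology terms of the table, 72 genes carry a synapse term, all but lgc-22, lgc-32 and lgc-33, of which the first is the second highest by level. A chloride channel or transport term is listed for 27 genes, 13 of them at 1 FPKM or more, and a term for acetylcholine-gated cation channels for 17. Exons of 32 genes overlap another gene, nearly all on the opposite strand. For 13 of the 31 genes at 1 FPKM or more this applies too, and since the use of strand in the counting is not given, reads of the partner cannot be told apart there. These 13 include lgc-27, with 108 of 1497 exonic bp shared with fut-6, and lgc-32, with 71 of 1301 exonic bp shared with T19D7.7.

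The agreement between the treatments was closer at higher levels among the genes at 0.1 FPKM or more. The median absolute log2 difference between ASP and Control libraries of the same number was 0.12 for the 4 genes at 10 FPKM or more, 0.24 for the 27 genes between 1 and 10 FPKM and 0.44 for the 33 genes between 0.1 and 1 FPKM. For the 11 genes under 0.1 FPKM it was 0.41. These differences were taken after 0.1 FPKM was added to each value, which shrinks them at low levels. Estimated counts per library were 727 to 5986 in the highest level, 68 to 2014 in the next and 0 to 181 between 0.1 and 1 FPKM. Differences in the 44 genes under 1 FPKM therefore rest on few counts.

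The comparison of ASP with Control asks whether aspartame changed the transcript levels of these channels. None of the 31 channel genes tested passed (0 called at an adjusted p under 0.05 in edgeR's quasi-likelihood test), and of all 13790 genes tested 0% were called. DESeq2 and limma also called 0 of the 31. At an unadjusted p under 0.05 in edgeR stood 1 channel gene, lgc-25, against 0.45% of all genes, and with the replicate number as a block 2, lgc-25 and lgc-28, against 2.68%. The estimate was above 0 for 13 of the 31 and below 0 for 18, with a median log2 ratio of −0.03 against 0.00 over all genes. Before adjustment the 95% interval of a channel gene reached a median of 0.64 log2 units to either side. With the replicate number as a block it reached 0.47. Both figures are medians, and some intervals were narrower, such as that of lgc-34 with the block (−0.29 to 0.09). Differences smaller than the reach of a gene's own interval could not be told from 0, even before adjustment. Larger ones could also miss the adjusted threshold, as lgc-25 did at −0.87. For lgc-27 the block narrowed the interval from −1.69 to 1.45 to −0.29 to 0.12.

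**Figure D3:**
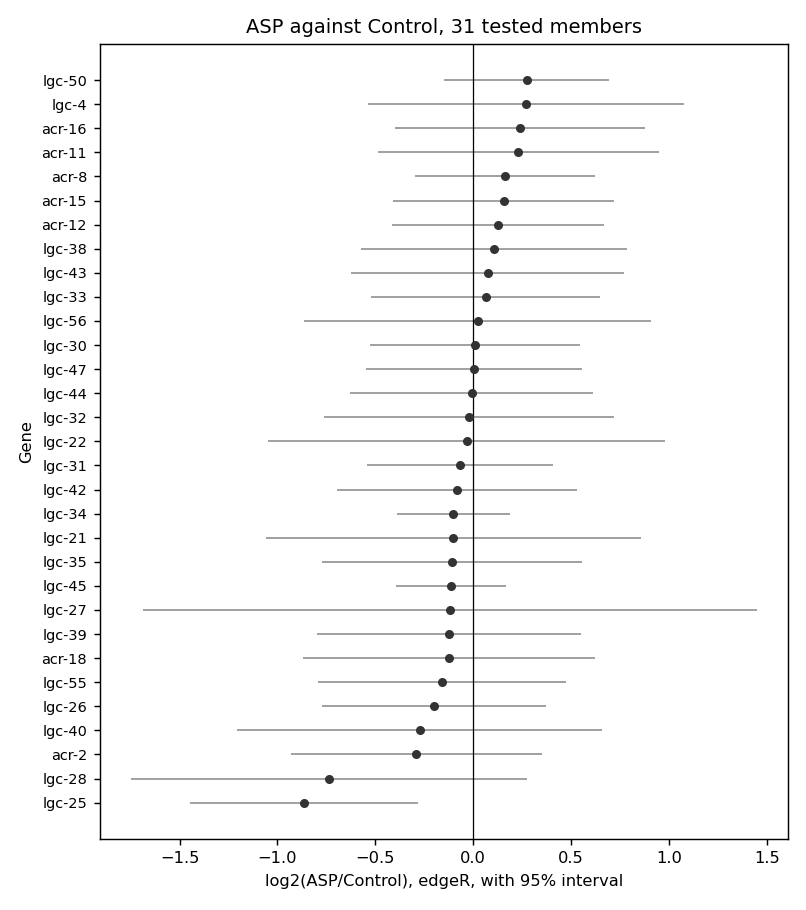
log2(ASP/Control) of the 31 tested channel genes with 95% intervals from edgeR, fitted without the replicate block. The interval of lgc-25, from −1.45 to −0.28, is the only one of the 31 that leaves out 0, before adjustment for the genes tested. In the fit with the block, not drawn here, that of lgc-28 (−1.42 to −0.21) left out 0 as well.

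The gene lgc-25, on chromosome X at 14158785 to 14161734 and listed with acetylcholine-gated cation channel terms, had 1.13, 0.896 and 0.955 FPKM in ASP and 1.84, 1.49 and 1.99 FPKM in Control. The groups did not overlap, which held for 1 of the 31 genes in this direction and for 1.1% of all genes tested. The opposite case, all ASP libraries above all Control libraries, held for 0 of the 31 and for 2.28% of all genes tested. The group means were 0.992 ± 0.119 FPKM in ASP and 1.77 ± 0.259 FPKM in Control (SD, n = 3 each). The log2 ratio was −0.87 (SE 0.24), with an edgeR adjusted p of 0.9999, so the gene did not pass. Its position among the genes with the smallest p was known from earlier results of these data, and its estimated counts were 103 to 254 per library.

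The next 3 genes below 0 in order of p also missed the threshold. The orphan lgc-28 had 1.05, 0.852 and 2.14 FPKM in ASP and 1.77, 2.24 and 2.66 FPKM in Control, a log2 ratio of −0.74 (SE 0.42) that became −1.26 without ASP 3 and −0.49 without ASP 2. In each pair of the same number ASP was the lower library of lgc-28, but the groups overlapped. With the replicate number as a block the ratio was −0.82 (SE 0.26) with an edgeR adjusted p of 0.997. The ratio of acr-2 was −0.29 (SE 0.27), and it was −0.16 without ASP 2 and −0.44 without Control 1. That of lgc-45 was −0.11 (SE 0.12), and it was −0.059 without Control 3 and −0.19 without ASP 2.

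The 4 higher genes with the smallest p, none of which passed, were lgc-50, acr-16, acr-8 and lgc-4. The serotonin-gated lgc-50 had a log2 ratio of 0.27 (SE 0.18), with ASP above Control in each of the 3 pairs, although ASP 3 lay below Control 2. For acr-16 the ratio was 0.24 (SE 0.27), and it became −0.02 without ASP 3, its highest library. The ratio of acr-8 was 0.16 (SE 0.19), and it was 0.082 without Control 2 and 0.28 without Control 3. For lgc-4 the ratio was 0.27 (SE 0.34), and it was 0.03 without Control 3 and 0.49 without Control 1. ASP was the higher library in all 3 pairs for 4 of the 31 genes (acr-8, acr-12, lgc-33 and lgc-50), where 12.8% of all tested genes did the same, and the lower library for 5 (lgc-25, lgc-27, lgc-28, lgc-34 and lgc-42), against 8.88%.

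**Figure D4:**
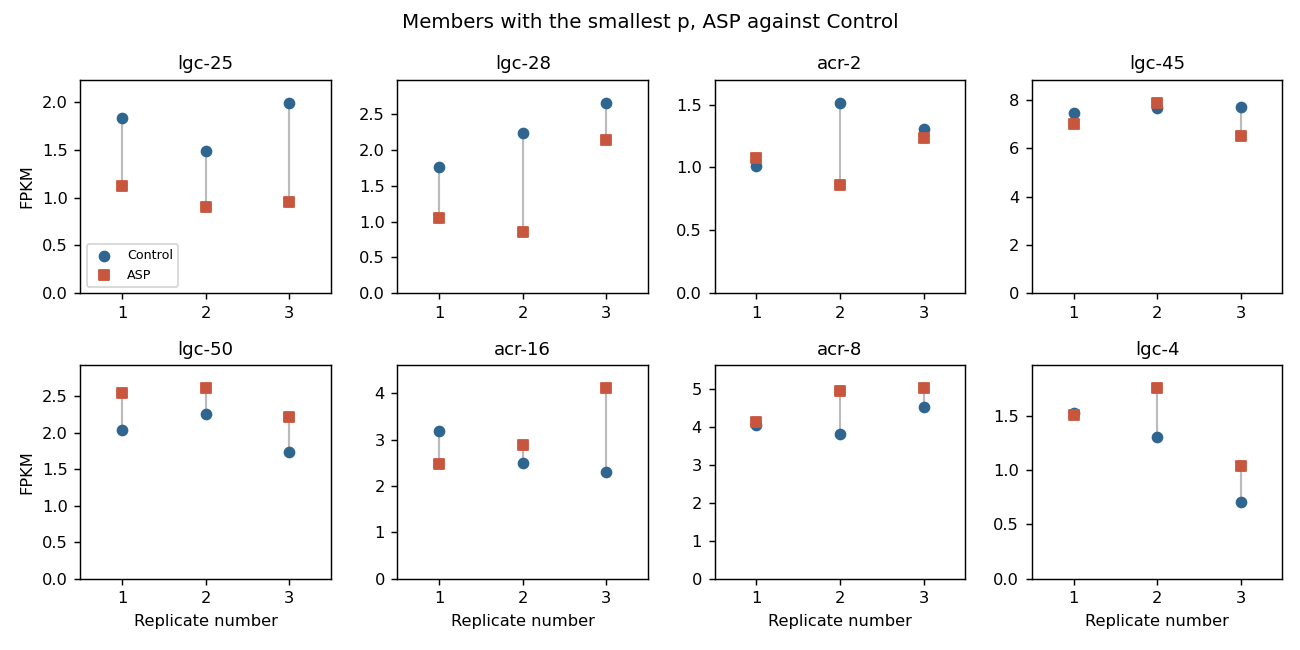
FPKM of 8 channel genes by replicate number. They have the smallest p in ASP against Control within each direction, with as many estimated higher in ASP as lower. Control is drawn as blue circles and ASP as red squares, joined by a grey line within a number. The ASP libraries of lgc-25 (0.896 to 1.13 FPKM) all lie below its Control libraries (1.49 to 1.99 FPKM), while the groups of the other 7 genes overlap.

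The remaining named subunits gave estimates within their error: acr-12 with a log2 ratio of 0.13 (SE 0.23), lgc-35 with −0.11 (SE 0.28) and lgc-55 with −0.16 (SE 0.26). Of the genes under 1 FPKM, 33 with a mean of at least 0.1 FPKM were tested in a fit with that lower filter, and 0 were called, as over all 18376 genes of that fit (0%). At an unadjusted p under 0.05 in edgeR stood 1 of the 33, against 0.642% of all genes. This gene, acr-19, an ACR-16-like gene named here after its values were seen, had 0.592, 0.642 and 0.594 FPKM in ASP and 0.366, 0.377 and 0.366 FPKM in Control. These groups did not overlap, which over all genes of the table held in this direction for 2.23%. Of all 75 channel genes acr-19 was the only one with ASP wholly above Control, and lgc-25 the only one with ASP wholly below, against 1.36% of all genes. The log2 ratio of acr-19 was 0.68 (SE 0.28, 47 to 86 estimated counts per library), with an edgeR adjusted p of 0.9999. When both libraries numbered 3 were left out, a setting chosen after seeing the data, 0 channel genes were called with the block, and the ratio of lgc-25 was −0.72 (SE 0.30).

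More channel genes were called between replicate numbers than between treatments. These contrasts were fitted in edgeR with the treatment as a term, 2 libraries per number, and they compare libraries that share a number rather than a treatment. Between numbers 2 and 1, 1 of 31 channel genes was called (3.23%, against 3.84% of all genes tested, of which 2.7% were higher and 1.14% lower). Between numbers 3 and 2, 3 were called, all higher in number 3 (9.68%, against 24.3% of all genes, 12.1% higher and 12.2% lower). Between numbers 3 and 1, 6 were called, all higher in number 3 (19.4%, against 37.5% of all genes). The higher calls were 18.3% and the lower calls 19.1% of all genes in that last contrast. The 3 contrasts share libraries and are not independent. Both libraries numbered 3 lay above both numbered 1 for 12 of the 31 channel genes (27.2% of all genes tested) and below them for 7 (44% of all genes). Against number 2 these were 9 (24.8%) and 10 (41.6%), and for number 2 against 1 they were 9 (25.7%) and 3 (28.1%).

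The gene with the largest difference was lgc-27, with 7.70, 10.2 and 25.5 FPKM in ASP 1, 2 and 3 and 7.79, 10.6 and 27.4 FPKM in Control 1, 2 and 3. The 2 libraries of a number were close to each other and those of number 3 lay far above the rest. Its log2 ratio was 1.87 (SE 0.11) for number 3 against 1 and 1.44 (SE 0.11) for number 3 against 2, with edgeR adjusted p of 1.26e-05 and 9.93e-05. For number 2 against 1 it was 0.43 (SE 0.11) and did not pass (adjusted p 0.0757).

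The gene lgc-22 was called in all 3 contrasts, with log2 ratios of 0.64 (SE 0.10) for number 2 against 1, 0.65 (SE 0.10) for 3 against 2 and 1.29 (SE 0.10) for 3 against 1. The call for number 2 against 1 (adjusted p 0.0136) was lost when ASP 1, ASP 2 or Control 2 was left out (adjusted p 0.0751, 0.104 and 0.190). In contrast, lgc-21 had nearly the same level in numbers 1 and 2 (25.6 and 25.7 FPKM on average) and 47.4 FPKM in number 3. Its log2 ratio was 0.99 (SE 0.15) for number 3 against 1 and 0.98 (SE 0.15) for 3 against 2. Without Control 2 the latter did not pass (adjusted p 0.0552).

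Number 3 against 1 also called lgc-43, lgc-32 and lgc-39. The orphan lgc-43 had 4.40, 5.39 and 7.75 FPKM in ASP and 4.30, 5.66 and 6.48 FPKM in Control, a log2 ratio of 0.81 (SE 0.15). For lgc-32 the values were 5.41, 8.46 and 11.6 FPKM in ASP and 7.63, 8.65 and 9.31 FPKM in Control, a ratio of 0.79 (SE 0.20). The call of lgc-32 was lost without ASP 1 or ASP 3 (adjusted p 0.194 and 0.0654). The ratio of lgc-39, the only called gene outside the orphans, was 0.68 (SE 0.21, adjusted p 0.0338), and it did not pass when ASP 2 or any one Control library was left out (adjusted p 0.055 to 0.337).

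**Figure D5:**
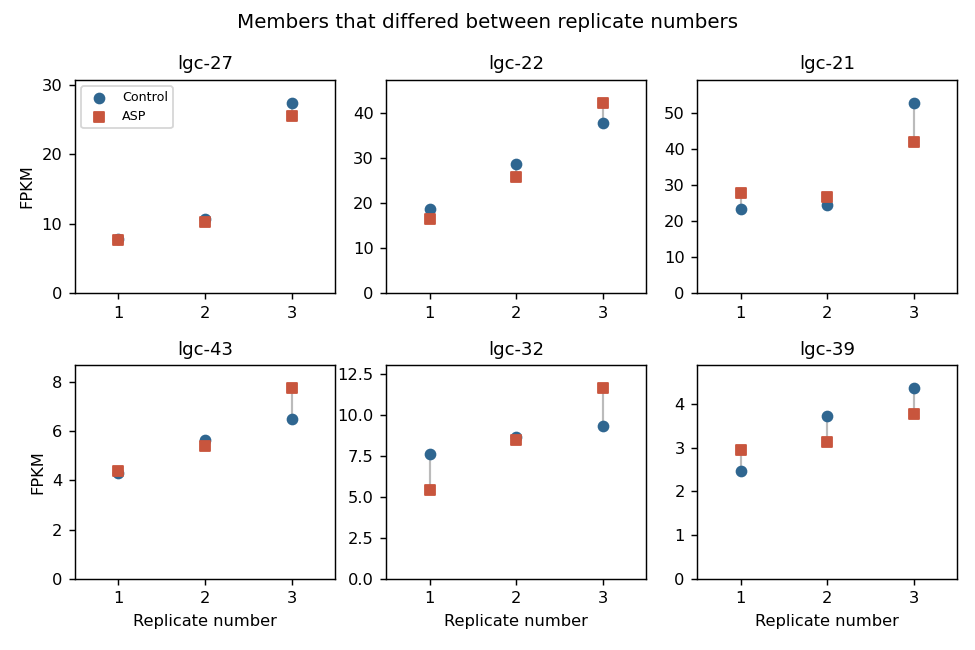
FPKM of the 6 channel genes called between replicate numbers, by replicate number, with Control as blue circles and ASP as red squares joined by a grey line within a number. For lgc-27 the libraries numbered 3 lie at 25.5 and 27.4 FPKM and the other 4 between 7.70 and 10.6 FPKM, and the 2 treatments of a number differ less than the numbers do.

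In the 3 contrasts of numbers 0 of the 7 nicotinic, 2 GABA-A-like and 1 acetylcholine-gated anion channel genes tested were called. The other genes of these classes lay under 1 FPKM. Over all genes tested the called share was 3.84% for number 2 against 1, 24.3% for 3 against 2 and 37.5% for 3 against 1. In the fit with the lower filter, 0 of the 33 genes between 0.1 and 1 FPKM were called in each, against 2.01% of all genes for number 2 against 1, 15.8% for 3 against 2 and 26.8% for 3 against 1. At an unadjusted p under 0.05 in edgeR stood 1, 3 and 4 of the 33, against 14.6%, 30.2% and 38.3% of all genes. The intervals were wide there, with a median of 0.856 log2 units to either side over 64 channel genes for number 3 against 2. The largest estimates below 0 for number 3 against 1 among the 31 genes were those of lgc-56 at −0.81 (SE 0.32, adjusted p 0.0780) and lgc-4 at −0.74 (SE 0.27, adjusted p 0.0653), and neither passed. The gene lgc-4 passed when libraries were scaled by total count (log2 −0.82, adjusted p 0.0438), and lgc-56 passed without ASP 3 (log2 −1.16, adjusted p 0.0401). With that scaling the median log2 ratio of all genes for number 3 against 1 moved to −0.10, and the calls over all genes were 1990 higher and 3361 lower in place of 2527 and 2640. Among the channel genes 5 were then higher and 1 lower. For number 3 against 2 it gave 1247 higher and 2193 lower in place of 1670 and 1676, and the same 3 channel genes. The median of the 31 channel genes for number 3 against 1 was 0.23, and 0.14 with total count scaling.

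The markers of stage differed between replicate numbers, though not all of them between numbers 2 and 1. Of 27 molting and cuticle genes tested, 22 were higher and 0 lower in number 2 than in number 1 (median log2 1.19), and 26 were higher and 1 lower in number 3 than in number 1 (median 2.45). All 6 vitellogenins were lower in number 3 than in number 1 (median −1.44), as were 16 of 16 oocyte and eggshell genes (median −1.19). For number 2 against 1, 0 of the 6 vitellogenins were called (median 0.01). In that contrast 6 of the 16 oocyte and eggshell genes were lower and 0 higher (median −0.42). The part of these stage differences in those of lgc-27, lgc-22 and lgc-21 was not tested. The summed level of 26 pan-neuronal genes was 418 to 474 FPKM over the 6 libraries, and of the 25 tested 4 were higher and 1 was lower in number 3 than in number 1 (median 0.19). Of 16 body wall muscle genes 5 were higher and 0 lower in number 3 than in number 1, and 9 and 0 in number 3 than in number 2 (median 0.34). Also called in number 3 against 1 were markers of the pharyngeal muscle (1 of 8 higher) and intestine (4 higher and 2 lower of 12). Of 20 germ line genes 1 was higher and 8 were lower. Of 41 sperm genes 4 were higher, but their median was −0.17. Their sum was 11022 FPKM in ASP 3, 15511 in Control 3 and 14706 to 16673 in numbers 1 and 2. Over all genes tested 18.3% were called higher and 19.1% lower in number 3 against 1, and 12.1% higher in number 3 against 2.

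The Cys-loop subunits with other names were represented by 25 of 28 listed genes, of which 19 were tested. For ASP against Control 0 were called. In number 3 against 1, 1 was higher and 3 were lower (median 0.10). The levamisole receptor subunit gene lev-1 had 3.33, 3.38 and 5.07 FPKM in ASP and 3.01, 3.03 and 4.17 FPKM in Control, a log2 ratio of 0.64 (SE 0.18). The glutamate-gated chloride channel genes glc-2 and avr-15 were lower, at −0.92 (SE 0.16) and −0.74 (SE 0.17), and so was pbo-5, a subunit of a proton-gated channel, at −0.49 (SE 0.15). Over all genes tested 18.3% were called higher and 19.1% lower in that contrast. Of the 31 lgc and acr genes 0 were called lower, and the difference from these 19 genes was not tested.

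Genes for the assembly and clustering of these receptors were represented by 20 tested genes. In number 3 against 1, 6 were higher and 0 lower (median 0.24), against 18.3% higher and 19.1% lower of all genes tested. Among them nra-4, which acts in receptor assembly in the endoplasmic reticulum, had a log2 ratio of 0.64 (SE 0.09), the FERM-domain gene frm-3 0.57 (SE 0.13) and the neurexin gene nrx-1 0.54 (SE 0.14). In number 3 against 2, 4 were higher, led by lev-10, which clusters acetylcholine receptors at the muscle synapse, with 0.63 (SE 0.12). Higher calls were 12.1% of all genes tested there. None was called for ASP against Control or for number 2 against 1.

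Of 21 genes for transmitter synthesis, transport and removal 14 were tested. In number 3 against 1, 1 was called higher, 5 were called lower and the other 8 did not pass (median −0.11). Of all genes tested 18.3% were called higher and 19.1% lower. The octopamine synthesis gene tbh-1 had 24.6, 22.9 and 8.72 FPKM in ASP and 26.6, 22.8 and 9.17 FPKM in Control, a log2 ratio of −1.41 (SE 0.09). The tyramine synthesis gene tdc-1 had 33.5, 21.7 and 13.9 FPKM in ASP and 29.2, 23.5 and 12.7 FPKM in Control, a log2 ratio of −1.14 (SE 0.09). The gene of a tyramine receptor among the channels, lgc-55, was not called in that contrast (log2 0.44, SE 0.27, adjusted p 0.225). The acetylcholinesterase gene ace-2 was lower by a log2 ratio of −0.53 (SE 0.12), and bas-1, which makes serotonin and dopamine from their precursors, was higher by 0.44 (SE 0.11). For ASP against Control 0 genes of this list were called.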

How the data were processed

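For every gene, the table deposited by the authors holds an FPKM and an estimated count in each of the 6 libraries, as named in its header. The estimated counts were already whole numbers as deposited by the authors, so rounding changed nothing. Which programs aligned and counted the reads, and whether strand was used, is not given in the sources used here. CASAVA 1.4 and the builds mm9 and mm10 appear in the submitters' processing notes, while the chromosome accessions are those of C. elegans WBcel235, whose positions are printed as the table gives them (73 of 75 starts and 74 ends match the Ensembl annotation used for exons, coding lengths and overlaps).

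The 13790 genes whose mean reached 1 FPKM were tested in edgeR 4.0.16 (quasi-likelihood, TMM, R 4.3.3) on the estimated counts, with Benjamini-Hochberg adjustment over all genes and a threshold of 0.05. SE and 95% intervals come from that fit. Contrasts of replicate numbers had the treatment as a term. Alternatives were DESeq2 1.42.0, limma 3.58.1 on log2(FPKM + 1) or log2(FPKM + 0.1), other filters and scalings, and leaving out single libraries.

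The groups share the numbers 1 to 3, and deviations from the group means correlated within each number (r 0.769, 0.482 and 0.791 over 13790 genes). On that ground the numbers were read as pairing the libraries. The main fit of ASP against Control left the number out, so differences between numbers add to its error. Values from the fit with the block are given where stated. Over the 31 channel genes alone r was 0.536, 0.173 and 0.717. There ASP 2 correlated more with Control 1 (r 0.505) than with Control 2. Classes are from textbook knowledge. Members, classes, lists and tests were chosen with earlier results of these data known. Named were the 8 highest genes, those called in a contrast of numbers, and 4 per direction with the smallest p in ASP against Control. Also named were a set of 11 subunits, with known roles except for the orphan lgc-25, and up to 3 called genes of a list per contrast. The other genes named were chosen after their values were seen.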

Additional observations from a re-analysis of the deposited data

How the results depend on the processing

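Fitted with the replicate block, edgeR called 0 of 31 channel genes for ASP against Control, as without it, and the pairing changed no call. The same count of 0 came from DESeq2, limma, every filter and scaling, and each library left out. For number 2 against 1, 1 channel gene was called, but 0 with no filter on low values, and 0 to 2 with 1 library left out. For number 3 against 2, 3 were called, and 2 to 5 with 1 library left out (5 without Control 3). For number 3 against 1 the count was 4 to 6 throughout. The estimate of acr-16 for ASP against Control turned from 0.24 to −0.021 without ASP 3 (−0.021 to 0.40 over the libraries left out) and to −0.075 with both libraries numbered 3 left out and the replicate block, a setting chosen after seeing the data. The cause was not tested. Of 284 values of 18 gene results under alternatives, 265 kept their direction and side of the threshold, 17 no longer passed and 2 reversed. The gene results of ASP against Control passed under no setting and so had no call to lose. All 17 losses came from the contrasts of numbers. The estimate of lgc-25 ranged from −1.001 to −0.72 with 1 library left out.

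Counts over all genes moved more. For number 2 against 1 they were 530 in edgeR, 9 with no filter, 370 with a mean of at least 0.1 FPKM, 875 in DESeq2, 297 in limma and 78 to 1546 with 1 library left out. For number 3 against 2, 3346 became 1195 with no filter and 1402 to 3612 with 1 library left out, and for number 3 against 1, 5167 became 3116 and 3253 to 5093. With the libraries numbered 3 left out and the block, 39 genes but 0 channel genes were called for ASP against Control. Estimated counts of the channel genes between 0.1 and 1 FPKM had a median of 56 per library, against 235.5 between 1 and 10 FPKM.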

Other observations

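The genes that follow have a mean between 0.1 and 1 FPKM, were tested in the fit with the lower filter and were chosen after their values were seen. The cluster gene lgc-13 had 1.28, 1.01 and 0.491 FPKM in ASP 1, 2 and 3 and 1.19, 1.23 and 0.620 FPKM in Control 1, 2 and 3, with both libraries numbered 3 below the other 4 (log2 −1.06 for number 3 against 1, SE 0.36, edgeR adjusted p 0.0688). The monepantel target acr-23 had a log2 ratio of 1.39 (SE 0.58, adjusted p 0.120) in the same contrast, and the acetylcholine-gated anion channel gene lgc-46 one of 0.80 (SE 0.32, adjusted p 0.104). The orphan lgc-54 was listed at 0.809 and 0.951 FPKM in the libraries numbered 1 and at 0.267 to 0.426 FPKM in the other 4 (log2 −1.54 for number 2 against 1, SE 0.47, adjusted p 0.182). None of these passed the threshold.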
